A study of Mus musculus with 15 samples.

Results

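Mature thymocytes with floxed Thpok and Runx3 alleles and Thpok-RKF, sorted as CD4+CD8+, were compared with wild-type (WT) CD4 single-positive (SP) thymocytes, the normal helper-lineage cells. The comparison used the 3 libraries labelled Thpok-RKF+ CD4+CD8+ and the 3 labelled WT CD4 SP, 6 of the 15 RNA-seq libraries of the series, picked by their labels alone. All libraries came from C57BL/6 mixed bone marrow chimeras, which are irradiated hosts rebuilt with mutant and WT marrow. The labels do not say whether the WT cells sequenced had shared a host with Thpok-RKF+ or with Thpok-RKF- cells. Every sort took cells with low CD44, CD24 and CD69 and high T cell receptor (TCR) beta. WT CD4 SP cells were CD45.1+CD45.2+, were taken as CD4+CD8-, and came from B2m-/- hosts, which lack the light chain of MHC class I. Thpok-RKF+ cells were CD45.2+ and carried Thpok fl/fl, Runx3 fl/dYFP, Cd4-Cre and Thpok-RKF; they came from B2m-/- hosts as well. Thpok-RKF- CD4+CD8+ cells, also from B2m-/- hosts, carried the same alleles without Thpok-RKF. WT CD8 SP cells came from I-Ab-/- hosts, which lack MHC class II, so their host differed along with their lineage. The labels do not explain the name Thpok-RKF. Cd4-Cre is active in developing T cells from the double-positive stage, so floxed alleles are intact before it. Genotype, CD45 marker and coreceptor gate all differed between the compared groups and cannot be told apart here.

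Thpok, the zinc finger repressor encoded by Zbtb7b, and Runx3 are the factors that oppose each other when positively selected thymocytes choose a lineage. Thpok is switched on in MHC class II-restricted cells, holds back Runx3 and the CD8 programme, and is needed for helper fate. Runx3 silences Cd4 and Zbtb7b and switches on CD8 and cytotoxic genes in MHC class I-restricted cells.

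Across the 15 libraries, gene totals ran from 37311823 to 48607260 counts, and 16550 of 53762 genes had enough counts to be tested. Thpok-RKF+ replicate 1 stood apart: 11.2% of its counted reads fell in no annotated feature, against 5.28% and 5.65% in replicates 2 and 3. Nothing in the labels ties the replicates to separate animals; p-values here reflect the spread among libraries, which may be technical. In bulk RNA, fewer cells of a type and less RNA per cell cannot be told apart. Levels below are CPM, the counts scaled to a common library size, given for replicates 1, 2 and 3 in that order. Differences are log2 fold changes, Thpok-RKF+ minus WT CD4 SP, with their standard error, tested by quasi-likelihood in edgeR; p-values were adjusted by Benjamini-Hochberg over all genes tested, with a threshold of 0.05.

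The Thpok-RKF+ cells held very high Zbtb7b RNA and high Runx3 RNA at the same time, kept Cd4 RNA and carried CD8 RNA. Zbtb7b was at 63.9, 79.1 and 27.4 CPM in WT CD4 SP and at 811, 768 and 823 CPM in Thpok-RKF+ libraries. Every Thpok-RKF+ library lay above every WT library, by 3.82 ± 0.33 (adjusted p = 2.94e-06). The mean was 2.46 ± 0.694 CPM (SD, n = 3) in Thpok-RKF- cells and 0.236 ± 0.142 CPM in WT CD8 SP. The labels do not say whether Thpok-RKF transcripts count as Zbtb7b. Runx3 was at 30.8, 32.4 and 23.1 CPM in WT CD4 SP and at 361, 268 and 286 CPM in Thpok-RKF+ libraries, again with no overlap (3.41 ± 0.16, adjusted p = 4.14e-09). Thpok-RKF- cells had a like Runx3 level, 279 CPM on average, and the difference between the mutant groups was 0.13 (adjusted p = 0.735). Counts cover whole genes and the labels do not say which part is floxed, so neither value checks a deletion.

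Both coreceptors were used in the sort, so their presence is a check of the gate. Cd4 was at 874, 969 and 822 CPM in WT CD4 SP and at 1120, 1040 and 1150 CPM in Thpok-RKF+ libraries. These ranges did not overlap, as in 21% of all genes tested, but the difference of 0.31 ± 0.40 missed the threshold (adjusted p = 0.744). Cd8a stood at 7.67, 3.19 and 2.13 CPM against 934, 1250 and 1130 CPM, a difference of 8.0 ± 0.42, which became 8.69 without WT CD4 SP replicate 1. Cd8b1, the other CD8 chain, stood at 33, 30.7 and 26.2 CPM against 845, 1100 and 966 CPM (5.02 ± 0.22). Of the gate genes, Cd44 (-0.14, adjusted p = 0.859), Cd24a (0.23, adjusted p = 0.883) and Cd69 (0.20, adjusted p = 0.775) did not pass the test, and their groups overlapped.

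Cd247 and Tspan9 were both far above WT CD4 SP. Cd247, the zeta chain that carries signals from the TCR, stood at 537, 463 and 559 CPM in WT CD4 SP and at 2380, 2770 and 2700 CPM in Thpok-RKF+ libraries (2.33 ± 0.10, adjusted p = 1.33e-09). The other groups stayed near the WT helper level, at 436 CPM in Thpok-RKF- CD4+CD8+ and 417 CPM in WT CD8 SP. Tspan9, a tetraspanin membrane protein, went from 25.7, 38 and 35 CPM to 587, 455 and 571 CPM (4.03 ± 0.16). It was high in Thpok-RKF- CD4+CD8+ cells too, at 369, 321 and 338 CPM (3.38 above WT CD4 SP), and averaged 111 CPM in WT CD8 SP. The mutant groups differed by 0.65 (adjusted p = 0.0393). Gata3, a transcription factor needed for helper fate, overlapped between the groups, at 69.4, 100 and 111 CPM against 67.1, 88.4 and 93.4 CPM (-0.17 ± 0.16, adjusted p = 0.606).

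**Figure D1:**
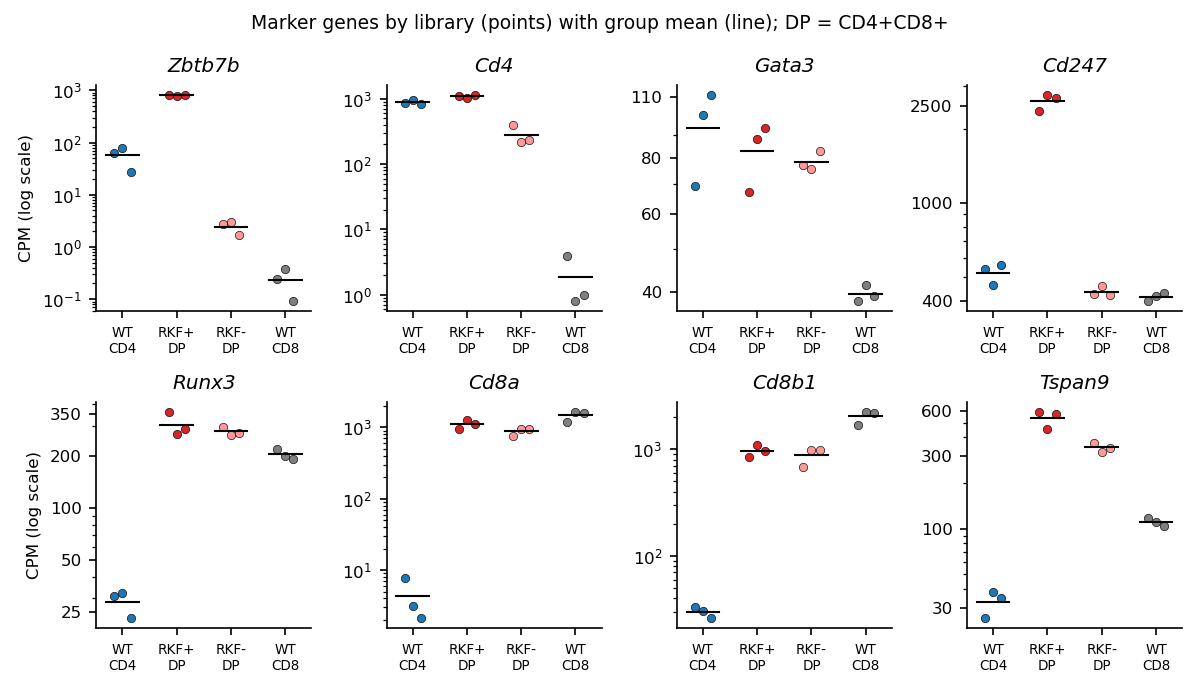
CPM of 8 marker genes (log scale, a separate range in each panel) in each library of 4 groups; points are libraries and lines are group means, and DP stands for CD4+CD8+. The Thpok-RKF+ points stand above all other groups for Zbtb7b and Cd247, and with the Thpok-RKF- points for Runx3, Cd8a and Cd8b1.

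Across all tested genes, 1202 differed between Thpok-RKF+ CD4+CD8+ and WT CD4 SP, which is 7.26% of 16550. Of these, 721 were higher in Thpok-RKF+ cells (4.36%) and 481 lower (2.91%), and the median difference over all genes was 0.01. DESeq2 called 1940 genes. A fit of the 6 compared libraries alone called 581, and these held 45.4% of the 1202. At least a 2-fold change was seen in 696 of them (4.21% of tested genes), 455 higher (2.75%) and 241 lower (1.46%). Without the 2-fold requirement, the count of lower genes went from 481 to 310 when Thpok-RKF+ replicate 3 was left out. For Thpok-RKF- CD4+CD8+ against the same WT libraries, 2908 genes were called (17.6%), 1514 higher (9.15%) and 1394 lower (8.42%). That number was 1488 without WT CD4 SP replicate 3, and 1823, 1683 and 1676 without Thpok-RKF- replicate 1, 2 or 3. These comparisons share the WT CD4 SP libraries, so their values are given side by side only. The Thpok-RKF+ and Thpok-RKF- groups themselves differed in 159 genes (0.961%), 97 higher (0.586%) and 62 lower (0.375%) with Thpok-RKF. With the replicate number as a block, 240 genes differed, 139 higher and 101 lower, and with a term for libraries numbered 1 the number was 350. The 159 of the fit without block or term was the least stable number. Without Thpok-RKF+ replicate 1, 2 or 3 it was 1677, 63 or 53, and without Thpok-RKF- replicate 1, 2 or 3 it was 92, 50 or 50.

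**Figure D2:**
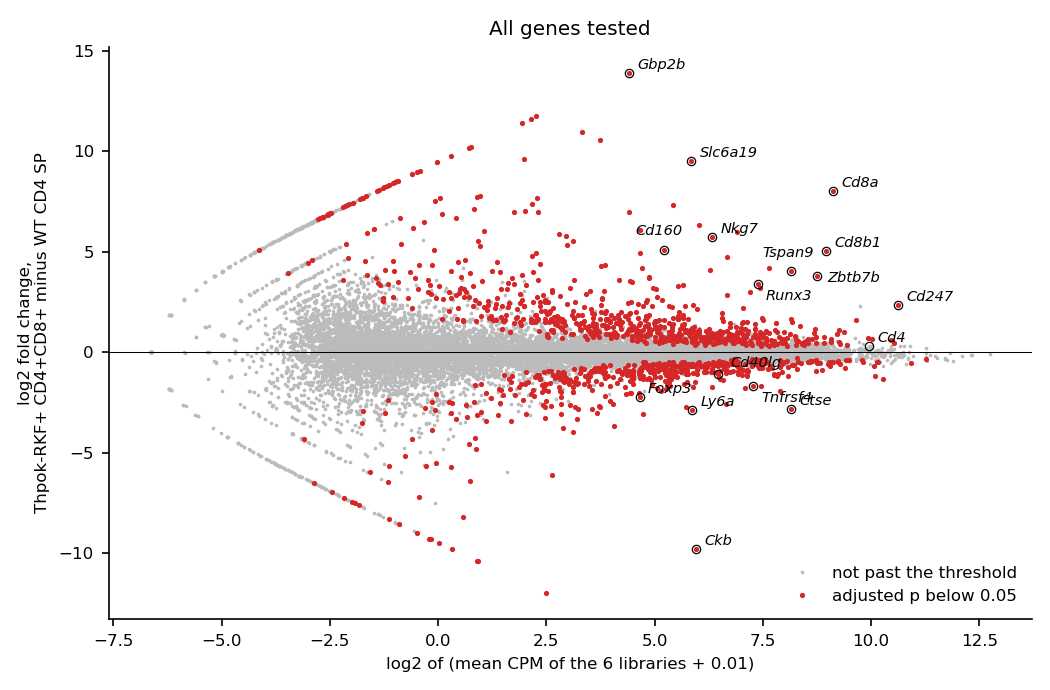
Log2 fold change of Thpok-RKF+ CD4+CD8+ minus WT CD4 SP (vertical) against the log2 of the mean CPM of the 6 libraries plus 0.01 (horizontal), 1 point per tested gene, with genes past the threshold in red. Cd8a, Zbtb7b and Cd247 stand out among abundant genes and Ckb among falls; the diagonal edges are genes with no counts in 1 group, whose fitted fold has no fixed size.

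Helper genes fell in part, while Zbtb7b itself rose. Of 14 helper genes tested, 4 fell, 2 rose and 8 did not pass the test, with a median difference of -0.20. Over all genes tested, 2.91% were lower and 4.36% higher. The genes that fell were the CD40 ligand gene Cd40lg, the costimulatory receptors Tnfrsf4 (OX40) and Icos, and the interleukin 2 receptor chain Il2ra. Tnfrsf4 and Il2ra are also regulatory T cell genes, and Foxp3, the factor of that lineage, differed by -2.24 in the same libraries; the part of regulatory T cells in the fall was not tested. Without Zbtb7b and Cd4, 4 of 12 helper genes fell and 1 rose. Tnfrsf4 was at 247, 188 and 268 CPM in WT CD4 SP and at 61.2, 85.9 and 74.9 CPM in Thpok-RKF+ libraries. Its groups stood well apart (-1.66 ± 0.32, adjusted p = 0.00493). Cd40lg, which lets helper cells activate B cells, was at 106, 125 and 125 CPM against 42.4, 67.2 and 61 CPM. The groups did not overlap (-1.06 ± 0.26, adjusted p = 0.0225), but Cd40lg missed the threshold without WT CD4 SP replicate 2 (-1.02, adjusted p = 0.0603) or 3 (-1.04, adjusted p = 0.0668), and without Thpok-RKF+ replicate 1 (-0.89, adjusted p = 0.0877) or 3 (-1.12, adjusted p = 0.0615). Icos, a costimulator of follicular help, was at 138, 191 and 188 CPM against 80.2, 104 and 95.4 CPM (-0.89 ± 0.13, adjusted p = 0.000541). Il2ra stood at 19.7, 45.4 and 33.4 CPM against 10, 6 and 7.81 CPM (-2.05 ± 0.40, adjusted p = 0.00554). Slamf6, a SLAM family receptor, was the other gene that rose, from 166, 194 and 213 CPM to 270, 319 and 319 CPM (0.67 ± 0.12, adjusted p = 0.00236).

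Thpok-RKF- cells had 7 helper genes lower and 2 higher than WT CD4 SP, with a median of -0.71, where 8.42% and 9.15% of all genes were lower and higher. The 7 include Zbtb7b (-4.53), which is floxed in these cells, and Cd4 (-1.66), which was used in the sort. For Tnfrsf4, Cd40lg and Icos, the differences from WT were -1.91, -1.32 and -0.75 without Thpok-RKF. Tested directly between the mutant groups, Tnfrsf4 (0.25, adjusted p = 0.775), Cd40lg (0.26, adjusted p = 0.7) and Icos (-0.13, adjusted p = 0.689) did not pass. Cd4 did pass that test, at 1.97 ± 0.42 (adjusted p = 0.0393), with 397, 214 and 234 CPM in Thpok-RKF- libraries. Against WT CD8 SP cells, 10 of the 14 helper genes were higher in Thpok-RKF+ cells and 1 lower. The 10 include Zbtb7b (11.73) and Cd4 (9.21), so the gate and the genotype had a part in that count. This comparison called 11.1% of all genes, 4.97% higher and 6.11% lower. Its counts over all genes moved when 1 library was left out (1835 genes called, 1092 and 1107 without WT CD8 SP replicate 2 or 3, 1188 without Thpok-RKF+ replicate 3). Cd40lg (42.4 to 67.2 CPM) and Tnfrsf4 (61.2 to 85.9 CPM) thus lay between WT CD4 SP and WT CD8 SP, whose means were 3.34 CPM and 2.77 CPM.

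Among the genes that were highest in WT CD4 SP over WT CD8 SP, some did not pass the test against Thpok-RKF+ cells. St8sia6, a sialyltransferase gene, was at 176, 199 and 177 CPM in WT CD4 SP and at 102, 109 and 124 CPM in Thpok-RKF+ libraries. The groups did not overlap, yet the difference of -0.72 ± 0.36 missed the threshold (adjusted p = 0.273). St8sia6 did pass, as lower in Thpok-RKF+ cells, when the 6 compared libraries were fitted alone. Ptgir, the prostacyclin receptor gene, overlapped between the groups, at 64.2, 72.3 and 65.5 CPM against 51.4, 51.3 and 65.9 CPM (-0.26 ± 0.26, adjusted p = 0.642). Both were far lower in WT CD8 SP, and they exceeded that level in Thpok-RKF+ cells by 7.74 (adjusted p = 2.78e-07) and 5.67 (adjusted p = 7.77e-08).

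Of 20 cytotoxic genes tested of 23 listed, 12 rose, 0 fell and 8 did not pass in edgeR, with a median difference of 2.04. The shares over all genes tested were 4.36% higher and 2.91% lower. The 12 include Cd8a and Cd8b1, which the gate selected for, and Runx3. Without these 3 genes, 9 of 17 rose, with a median of 1.66. In Thpok-RKF- cells against WT CD4 SP, 12 of the 20 rose and 2 fell, with a median of 2.13. In that comparison 9.15% of all genes were higher and 8.42% lower. Itgae, the CD103 integrin chain that binds E-cadherin, was at 6.23, 10.3 and 8.76 CPM in WT CD4 SP and at 174, 145 and 119 CPM in Thpok-RKF+ libraries (4.11 ± 0.18, adjusted p = 1.88e-09). Prf1, the pore-forming perforin gene, was at 36.2, 31.7 and 30.2 CPM against 195, 299 and 286 CPM (2.99 ± 0.16, adjusted p = 1.51e-08). Neither gene overlapped between the groups. Nkg7, a protein of cytotoxic granules, was at 1.26, 2.09 and 5.46 CPM against 121, 190 and 161 CPM (5.75 ± 0.40). Its difference was 6.53 without WT CD4 SP replicate 3, and against WT CD8 SP (mean 1230 CPM) it was -2.96 (adjusted p = 5.37e-05). Il2rb, the beta chain of the interleukin 2 and 15 receptors, was at 124, 180 and 105 CPM against 462, 420 and 406 CPM (1.66 ± 0.18).

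Further cytotoxic genes that rose were Crtam (2.39 ± 0.32), the protease gene Ctsw (1.09 ± 0.21), the protease inhibitor gene Cst7 (1.37 ± 0.15) and the NK receptor chain Klrd1 (3.61 ± 0.60). These, with Prf1, fell outside the naming rule and were chosen after their values were seen, apart from Klrd1. The Klrd1 value was 5.07 without WT CD4 SP replicate 3. Klrk1 had no count in WT CD4 SP and 22, 20 and 0 counts in Thpok-RKF+ replicates 1, 2 and 3, so the groups overlapped. Klrk1 thus had 42 counts over the Thpok-RKF+ libraries, at least 14-fold higher on a floor of 3 counts over the group. Its call (adjusted p = 0.0222) was lost without WT CD4 SP replicate 1, 2 or 3 (adjusted p = 0.0622, 0.0566 and 0.0652) or Thpok-RKF+ replicate 1 (0.0522), where the fitted value was 6.75, 6.74, 6.75 and 6.29, and in limma (adjusted p = 0.206). Between the mutant groups, Cst7 (0.72, adjusted p = 0.0344) was the 1 cytotoxic gene of 20 past the threshold, where 0.961% of all genes passed. Thpok-RKF+ cells had 7 of the 20 below WT CD8 SP and 3 above, where 6.11% of all genes were lower and 4.97% higher.

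**Figure D3:**
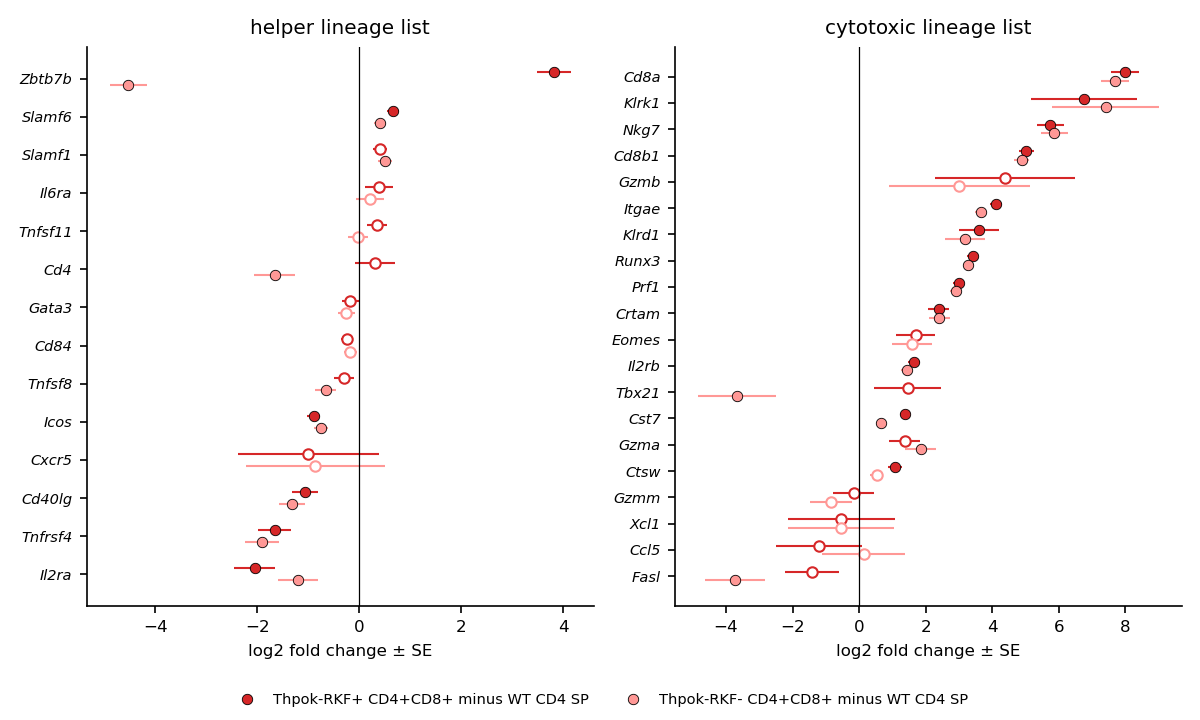
Log2 fold change against WT CD4 SP with its standard error for tested members of the helper (left) and cytotoxic (right) lists, in Thpok-RKF+ (dark) and Thpok-RKF- (light) CD4+CD8+ cells; filled points passed the threshold. Zbtb7b stands at 3.82 in Thpok-RKF+ and -4.53 in Thpok-RKF- cells, while Nkg7, Itgae, Runx3 and Prf1 lie close together in both.

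The largest rises were in genes almost silent in WT CD4 SP. Gbp2b, an interferon-inducible GTPase of a family with near-identical copies, had no count in WT CD4 SP and stood at 32.9, 46.6 and 48.2 CPM in Thpok-RKF+ libraries. With a floor of 3 counts over the group, that is at least 1920-fold higher. Thpok-RKF- cells had it too (54.8, 66.8 and 63.8 CPM), while WT CD8 SP cells had 0.0266, 0 and 0 CPM. Slc6a19, a neutral amino acid transporter, rose from 0, 0.414 and 0.0229 CPM to 147, 104 and 93.4 CPM. Its difference of 9.52 ± 0.48 became 12.97 without WT CD4 SP replicate 2. Adgrb2, an adhesion G protein-coupled receptor, rose from 0, 0.228 and 1.35 CPM to 64.3, 102 and 90.5 CPM (7.35 ± 0.63, or 9.44 without WT CD4 SP replicate 3). Adgrg5, another such receptor, went from 1.76, 4.51 and 4.78 CPM to 238, 232 and 234 CPM (5.99 ± 0.28). Both were also high in Thpok-RKF- cells and in WT CD8 SP. Tested directly between the mutant groups, Adgrg5 differed by 1.40 (adjusted p = 0.00866) and Slc6a19 by -1.61 (adjusted p = 0.0171). Adgrb2 (0.72, adjusted p = 0.49) and Gbp2b (-0.54, adjusted p = 0.224) did not pass that test.

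Eng, the TGF-beta coreceptor endoglin, rose from 1.16, 1.74 and 1.92 CPM to 167, 105 and 116 CPM (6.33 ± 0.22). Slc27a6, a fatty acid transporter, rose from 0.274, 1.08 and 0.892 CPM to 49.7, 51.7 and 49.4 CPM (6.06 ± 0.35). Cd160, a receptor on both the coinhibitory and the NK receptor lists used here, rose from 1.21, 2.61 and 2.47 CPM to 62.7, 81.7 and 73.9 CPM (5.11 ± 0.37). The direct test between the mutant groups gave -0.16 (adjusted p = 0.714) for Eng, 1.34 (adjusted p = 0.0326) for Slc27a6 and 1.90 (adjusted p = 0.0098) for Cd160.

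Among the 12 largest rises, Cpne8, Syt10 and Rabl2 were the ones that stayed low in every other group. Cpne8, a copine, was at 0.0228, 0 and 0.0229 CPM in WT CD4 SP and at 31.1, 22.3 and 26.6 CPM in Thpok-RKF+ libraries. Syt10, a synaptotagmin, went from 0.708, 0.0414 and 0.274 CPM to 33.4, 47.9 and 45.7 CPM (6.96 ± 0.87, or 8.07 without WT CD4 SP replicate 1). Rabl2, a small GTPase of cilia, went from 0.206, 0.848 and 0.0229 CPM to 13.6, 18.4 and 18.6 CPM (5.53 ± 0.72, or 7.16 without WT CD4 SP replicate 2). The direct test against Thpok-RKF- cells gave 11.38 (adjusted p = 0.000292) for Cpne8, 11.27 (adjusted p = 0.000671) for Syt10 and 3.79 (adjusted p = 0.0123) for Rabl2. In the RefSeq order of protein-coding genes in GRCm38.p6, Rabl2, Syt10, Alg10b and Cpne8 follow each other on chromosome 15. Of these and the 5 protein-coding genes on each side, 14 in all, 8 were tested. Of the 8, 6 were higher in Thpok-RKF+ cells than in WT CD4 SP, a comparison in which 4.36% of all genes tested were higher. The stretch was chosen after its values were seen, and 3 of the 6 are the genes that led to its choice. Alg10b, a glucosyltransferase of protein glycosylation, stood at 1.39, 2.28 and 3.82 CPM against 29.9, 12.7 and 13.9 CPM (2.91, adjusted p = 0.00227, or 2.13 without the 5 libraries numbered 1). Shank3 and Abcd2, the others that were higher, had no count in WT CD4 SP and stood at 4.29, 0.864 and 2.15 CPM and at 6.79, 12.3 and 4.0 CPM in Thpok-RKF+ libraries. Alg10b (1.43, adjusted p = 0.202), Shank3 (3.69, adjusted p = 0.155) and Abcd2 (3.31, adjusted p = 0.225) did not pass the direct test against Thpok-RKF- cells. The other tested genes, Chkb (0.66, adjusted p = 0.601) and Arsa (-0.21, adjusted p = 0.597), did not pass against WT CD4 SP.

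The largest fall among abundant genes was in Ckb, the brain-type creatine kinase. Ckb was at 113, 130 and 129 CPM in WT CD4 SP and at 0.381, 0 and 0.0237 CPM in Thpok-RKF+ libraries. The difference was -9.77 ± 0.50 (adjusted p = 9.31e-09), and it was -13.10 without Thpok-RKF+ replicate 1 and -9.18 without replicate 2. Thpok-RKF- cells held Ckb at 61.7, 57.3 and 51.1 CPM, and the direct test between the mutant groups gave -8.64 ± 0.49 (adjusted p = 2.01e-07). Ctse, the aspartic protease cathepsin E, was at 490, 446 and 555 CPM against 66.7, 77.3 and 69.4 CPM (-2.81 ± 0.17). Its level in Thpok-RKF- cells was like that with Thpok-RKF, at 67, 64.5 and 46.7 CPM, and WT CD8 SP had 275, 285 and 311 CPM. Ly6a, the surface protein Sca-1, was at 89.1, 116 and 103 CPM against 19, 11.2 and 11.7 CPM (-2.88 ± 0.38). L1cam, an adhesion molecule, was at 35.9, 49 and 58.6 CPM against 5.98, 3.24 and 7.79 CPM (-3.08 ± 0.40).

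The other large falls were Zbtb8a, a zinc finger factor (-3.94 ± 0.47), Ncmap, a myelin-associated protein (-3.64 ± 0.27), Gpnmb, a glycoprotein (-3.31 ± 0.40), and Vill, a villin-like protein (-3.02 ± 0.48). Pcsk4, a proprotein convertase, fell by 2.82 on the log2 scale. Mcub, a subunit of the mitochondrial calcium uniporter, fell by 2.74. Nt5e, the CD73 ectoenzyme that makes adenosine, fell by 2.68 on the log2 scale, from 12.8, 32.8 and 22.2 CPM to 2.28, 4.88 and 3.43 CPM. Ly6c1 fell by 2.74, whereas its near-identical copy Ly6c2 rose by 4.17 ± 0.25, from 1.9, 3.39 and 2.9 CPM to 54.4, 50.9 and 42.7 CPM. Between the mutant groups, Ly6c1 differed by -1.36 (adjusted p = 0.0631) and Ly6c2 by 1.54 (adjusted p = 0.00305). Reads of the Ly6c pair may have been split between them, so the values of both genes are uncertain.

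**Figure D4:**
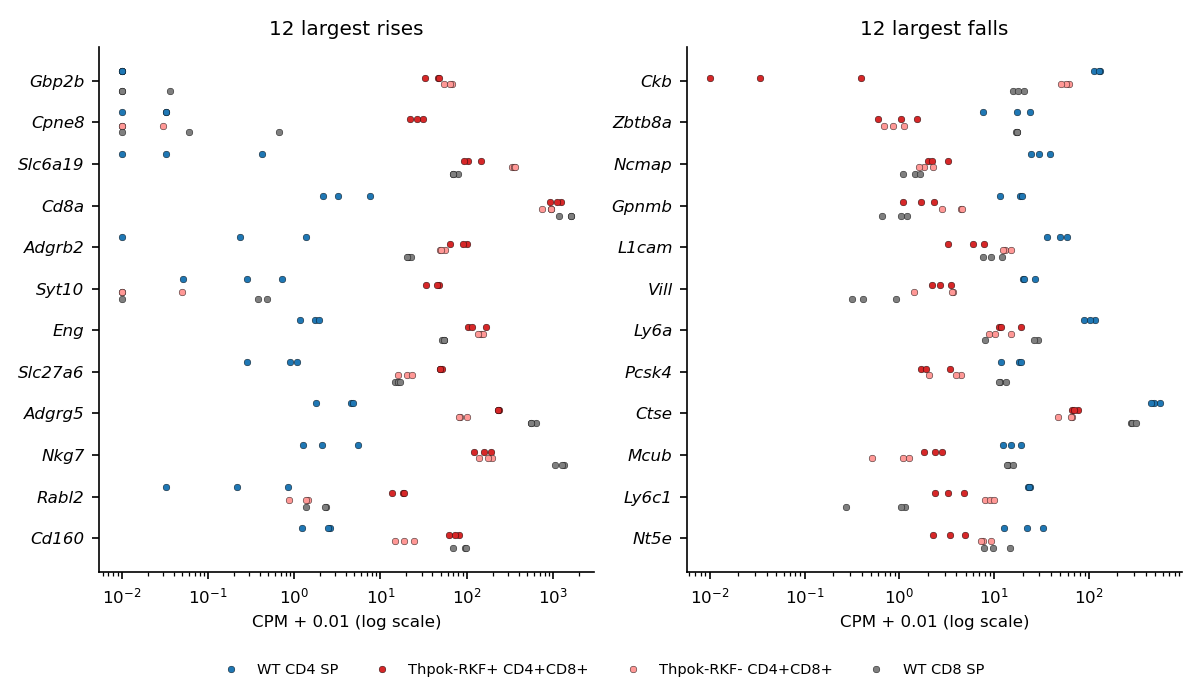
CPM plus 0.01 (log scale) in each library of 4 groups for the 12 largest rises (left) and 12 largest falls (right) of Thpok-RKF+ CD4+CD8+ against WT CD4 SP. Red points of Cpne8, Syt10 and Rabl2 stand apart from all other groups, and red points of Ckb lie below them.

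Promoters of the tested genes were searched for the core RUNX letters. Whether a RUNX protein acts on any of these genes was not tested. The letters were TGTGGT, or ACCACA on the other strand, within 250 bases before to 50 bases after each RefSeq start in GRCm38.p6; the counts were made on mm39. Of the tested genes, 10573 matched a RefSeq entry, and 13.3% of their 13434 windows held the letters. The share was 14.9% for genes higher in Thpok-RKF+ cells (106 of 710 windows) and 11.7% for genes lower (55 of 472 windows). Called genes at least 2-fold higher had the letters in 19.3% of windows and those at least 2-fold lower in 11.1%. Among the 12 largest rises, 11 genes had 12 windows and 4 of these held the letters, in Adgrg5, Cd160 and Nkg7. Among the 12 largest falls, 9 genes had 12 windows and 1 of these held the letters. A match is a run of letters and not a site. A window of each of the 3 genes and that of an upstream Runx3 start are shown, while a second Cd160 window with the letters and the other Runx3 window, without them, are not. They are given 5′ to 3′ on the gene's strand, with the matched letters in capitals, at chr8:94923444-94923743 (plus), chr3:96814472-96814771 (minus), chr7:43436888-43437187 (plus) and chr4:135120395-135120694 (plus).
Adgrg5: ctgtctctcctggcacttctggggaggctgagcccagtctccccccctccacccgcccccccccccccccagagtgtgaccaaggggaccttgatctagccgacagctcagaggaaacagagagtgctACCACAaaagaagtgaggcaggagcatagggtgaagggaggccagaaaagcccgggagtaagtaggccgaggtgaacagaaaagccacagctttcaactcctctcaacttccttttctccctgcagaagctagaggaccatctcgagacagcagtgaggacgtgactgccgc
Cd160: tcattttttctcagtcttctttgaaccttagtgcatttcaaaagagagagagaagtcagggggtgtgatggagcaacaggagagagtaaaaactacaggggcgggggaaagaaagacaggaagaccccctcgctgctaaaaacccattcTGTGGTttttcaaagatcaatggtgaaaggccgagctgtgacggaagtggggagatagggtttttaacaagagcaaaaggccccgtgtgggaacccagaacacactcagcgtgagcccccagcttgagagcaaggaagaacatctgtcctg
Nkg7: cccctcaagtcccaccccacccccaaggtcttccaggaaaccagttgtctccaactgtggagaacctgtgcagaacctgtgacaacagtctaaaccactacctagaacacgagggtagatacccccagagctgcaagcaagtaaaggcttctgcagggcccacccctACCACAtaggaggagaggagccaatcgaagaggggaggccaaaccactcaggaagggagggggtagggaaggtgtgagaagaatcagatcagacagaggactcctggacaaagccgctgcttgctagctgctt
Runx3: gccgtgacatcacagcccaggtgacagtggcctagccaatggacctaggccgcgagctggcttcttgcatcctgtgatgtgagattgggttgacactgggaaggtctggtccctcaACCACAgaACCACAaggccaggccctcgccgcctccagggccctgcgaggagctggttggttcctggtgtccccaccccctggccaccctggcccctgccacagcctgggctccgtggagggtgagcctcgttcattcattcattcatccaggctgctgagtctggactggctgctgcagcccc

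Of 26 lineage and identity transcription factors, 7 rose, 2 fell and 17 did not pass the test. Over all genes tested, 4.36% were higher and 2.91% lower, so this list was called more often in both directions. The 7 include Zbtb7b and Runx3. Zbtb7a, the close relative of Thpok also called LRF, rose from 68.5, 62.4 and 56.8 CPM to 113, 107 and 114 CPM (0.83 ± 0.10, adjusted p = 0.000144). Id2, an inhibitor of E proteins, rose from 77.8, 70.3 and 95.6 CPM to 148, 183 and 153 CPM (0.99 ± 0.16, adjusted p = 0.00136). Its relative Id3 went the other way, from 280, 425 and 430 CPM to 51.5, 128 and 117 CPM (-1.93 ± 0.42, adjusted p = 0.0101). Id3, Tox, Ikzf3, Bach2 and Ets1 were named after their values were seen. Apart from Id3, each lost its call in more than 1 of the fits without 1 library. Tox (0.59, adjusted p = 0.0157), which is needed for the CD4 lineage, missed the threshold without WT CD4 SP replicate 1 (0.52, adjusted p = 0.0741) or Thpok-RKF+ replicate 3 (0.54, adjusted p = 0.0697). Ikzf3 (0.67) lost its call without WT CD4 SP replicate 2 (0.62, adjusted p = 0.104) or 3 (0.49, adjusted p = 0.15), or Thpok-RKF+ replicate 1 (0.54, adjusted p = 0.131) or 3 (0.68, adjusted p = 0.0788). Bach2 (0.57) lost it without the same libraries, at 0.53, 0.48, 0.43 and 0.57 (adjusted p = 0.0936, 0.138, 0.126 and 0.0814). Ets1 (-0.32) lost it without WT CD4 SP replicate 1 or 2 (-0.32 and -0.29, adjusted p = 0.0988 and 0.107) or Thpok-RKF+ replicate 1 or 2 (-0.33 and -0.25, adjusted p = 0.0595 and 0.114).

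Within the TCR complex and its proximal kinases, Cd247 was the member that changed most. Of 22 genes, 3 rose, 1 fell and 18 did not pass the test, where 4.36% of all genes were higher and 2.91% lower. Cd3e, a CD3 chain, stood at 572, 656 and 595 CPM against 805, 773 and 776 CPM (0.37 ± 0.09, adjusted p = 0.0203). Cd5, a negative regulator that tracks TCR signal strength, stood at 562, 701 and 705 CPM against 402, 530 and 469 CPM (-0.49 ± 0.13, adjusted p = 0.0276). The Cd3e call was lost without WT CD4 SP replicate 1 or 3 (0.32 and 0.33, adjusted p = 0.118 and 0.101) or Thpok-RKF+ replicate 1 or 3 (0.35 and 0.37, adjusted p = 0.0573 and 0.0638). That of Cd5 was lost without WT CD4 SP replicate 2 or 3 (-0.44 and -0.46, adjusted p = 0.0783 and 0.0805) or Thpok-RKF+ replicate 1 or 3 (-0.40 and -0.50, adjusted p = 0.0735 and 0.0813). Of 16 genes induced by TCR signals, 2 fell (Cd5 and Irf4) and 0 rose. Irf4, a factor of activated T cells, was at 22.2, 7.55 and 11.8 CPM against 5.16, 0.885 and 4.4 CPM (-1.99 ± 0.57, adjusted p = 0.0488). It kept its call in 1 of the 6 fits without 1 library, that without WT CD4 SP replicate 2; the others gave -1.48, -2.11, -2.39, -1.53 and -2.20 without WT CD4 SP replicate 1 or 3 or Thpok-RKF+ replicate 1, 2 or 3 (adjusted p = 0.187, 0.0802, 0.054, 0.0821 and 0.0904).

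Some regulatory T cell genes were lower in Thpok-RKF+ cells. Of 13 tested, 4 fell (Foxp3, Il2ra, Tnfrsf4 and Gpr83), 0 rose and 9 did not pass in edgeR, with a median difference of -0.29. Beside this, 2.91% of all genes were lower and 4.36% higher. Among the 9, Tnfrsf18 (-0.03, adjusted p = 0.963), Izumo1r (0.31, adjusted p = 0.43), Nrp1 (0.38, adjusted p = 0.468) and Capg (0.37, adjusted p = 0.335) overlapped between the groups; they were named after their values were seen. Foxp3, the lineage factor of regulatory T cells, was at 31.5, 53.7 and 39.3 CPM in WT CD4 SP and at 8.56, 8.88 and 8.95 CPM in Thpok-RKF+ libraries. These groups did not overlap (-2.24 ± 0.33, adjusted p = 0.000603). Thpok-RKF- cells overlapped WT CD4 SP, at 50, 24 and 22.4 CPM (-0.37, adjusted p = 0.459), and the mutant groups differed by -1.87 ± 0.33 (adjusted p = 0.0147). Gpr83, a receptor enriched in regulatory T cells, was at 80.5, 95.9 and 101 CPM against 41, 55.1 and 55.4 CPM (-0.87 ± 0.15, adjusted p = 0.00217), and the mutant groups differed by -1.31 (adjusted p = 0.000742). The summed level of the list was 957 to 1210 CPM in WT CD4 SP and 705 to 977 CPM in Thpok-RKF+ libraries. The part of regulatory T cells among the sorted cells in these differences was not tested.

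Of 16 costimulatory TNF family genes, 1 rose and 3 fell, where 4.36% of all genes were higher and 2.91% lower. Tnfrsf1b, the type 2 TNF receptor, rose from 134, 161 and 140 CPM to 248, 233 and 223 CPM (0.70 ± 0.11, adjusted p = 0.00116). Fas, the death receptor, fell from 65.2, 68.8 and 78.4 CPM to 41, 57.7 and 44 CPM (-0.57 ± 0.14, adjusted p = 0.0214). The Fas call was lost without WT CD4 SP replicate 3 (-0.52, adjusted p = 0.0864) or Thpok-RKF+ replicate 1 (-0.48, adjusted p = 0.0809) or 3 (-0.53, adjusted p = 0.0973). Of 11 coinhibitory and CD28 family genes, 2 rose (Cd160 and Cd226) and 2 fell (Icos and Pdcd1). Cd226, an activating receptor, rose from 42.9, 44.4 and 43.7 CPM to 127, 157 and 148 CPM (1.72 ± 0.11, adjusted p = 1.25e-07), a level close to the 142 CPM of WT CD8 SP. Pdcd1, the inhibitory receptor PD-1, was at 20.3, 39.7 and 34.1 CPM against 14.5, 14.3 and 13.1 CPM (-1.16 ± 0.32, adjusted p = 0.0405). It kept its call in 1 of the 6 fits without 1 library, that without WT CD4 SP replicate 1; the others gave -0.96, -1.12, -1.19, -1.18 and -1.12 without WT CD4 SP replicate 2 or 3 or Thpok-RKF+ replicate 1, 2 or 3 (adjusted p = 0.125, 0.103, 0.0887, 0.0781 and 0.123).

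Of 21 cytokine receptor and SOCS genes, 5 rose and 1 fell, where 4.36% of all genes were higher and 2.91% lower. Socs3 (0.77, adjusted p = 0.0407), another SOCS inhibitor and 1 of the 5, lost its call in all 6 fits without 1 WT CD4 SP or Thpok-RKF+ library, at 0.83, 0.81 and 0.64 without WT CD4 SP replicate 1, 2 or 3 and 0.85, 0.69 and 0.75 without Thpok-RKF+ replicate 1, 2 or 3 (adjusted p = 0.0927, 0.0882, 0.194, 0.0556, 0.0972 and 0.107). It was named after its values were seen. Il18r1, a chain of the interleukin 18 receptor, rose from 5.91, 9.77 and 11.2 CPM to 44.8, 49.3 and 39.5 CPM (2.31 ± 0.32, adjusted p = 0.000286). Il12rb1, a chain of the interleukin 12 receptor, rose from 5.71, 10.9 and 10.1 CPM to 22.1, 32.2 and 27.4 CPM (1.61 ± 0.27, adjusted p = 0.00141). Socs1, a feedback inhibitor of cytokine signals, rose from 94.6, 77.3 and 86.1 CPM to 144, 169 and 153 CPM (0.85 ± 0.11, adjusted p = 0.00012). All 3 genes were above their WT CD8 SP level too, by 3.71, 1.52 and 1.08. Socs1 also exceeded its level in Thpok-RKF- CD4+CD8+ cells (0.60, adjusted p = 0.0142). Il18r1 (0.84, adjusted p = 0.226) and Il12rb1 (1.10, adjusted p = 0.067) did not pass that direct test. Thpok-RKF- CD8 SP cells, another group of the series, averaged 211 CPM of Socs1, 51.7 CPM of Il18r1 and 9.88 CPM of Il12rb1.

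Of 18 chemokine receptor, maturation and egress genes, 2 rose and 2 fell, where 4.36% of all genes were higher and 2.91% lower. Ccr9, the receptor for CCL25 in thymus and gut, rose from 24.1, 20.5 and 18.7 CPM to 535, 294 and 313 CPM (4.17 ± 0.22, adjusted p = 1.06e-08). Thpok-RKF- cells (542 CPM) and WT CD8 SP (332 CPM) were at a like level. Slfn1, a Schlafen gene linked to quiescence, fell from 574, 555 and 686 CPM to 293, 357 and 320 CPM (-0.90 ± 0.12, adjusted p = 0.000168).

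Effector and memory genes moved in both directions, 3 up and 6 down of 18, where 4.36% of all genes were higher and 2.91% lower. Tagln2, an actin-binding protein, rose from 120, 138 and 116 CPM to 254, 277 and 245 CPM (1.05 ± 0.11, adjusted p = 1.87e-05). Lgals3, the galectin 3 gene, fell from 9.34, 11 and 16.5 CPM to 2.81, 1.84 and 1.63 CPM (-2.55 ± 0.40, adjusted p = 0.00093). S100a6, a calcium-binding protein, had 515 counts over the WT CD4 SP libraries and none in Thpok-RKF+, at least 172-fold lower on the floor of 3 counts over the group. Its relative S100a11 rose, from 10.7, 22.9 and 13.7 CPM to 45.7, 41.3 and 39.8 CPM (1.42 ± 0.24). These last 3 genes were named after their values were seen. Of 9 NK receptor and innate-like genes tested, 3 rose and 2 fell. Cd7, an early T cell surface protein, fell from 82.8, 85.7 and 105 CPM to 22.9, 31.6 and 28.7 CPM (-1.72 ± 0.15, adjusted p = 3.1e-06), and its difference from Thpok-RKF- cells was -0.88 (adjusted p = 0.011).

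Of 26 interferon-response genes, 10 fell, 1 rose and 15 did not pass the test, with a median difference of -0.54. The shares over all genes tested were 2.91% lower and 4.36% higher. Oasl2, an antiviral 2-5A synthetase-like protein, fell from 46.5, 66.7 and 65 CPM to 14.3, 20.9 and 16 CPM (-1.80 ± 0.30, adjusted p = 0.0015). Ifi27l2a fell from 316, 390 and 421 CPM to 151, 184 and 165 CPM (-1.17 ± 0.21, adjusted p = 0.00217). Xaf1, a pro-apoptotic interferon target, fell from 115, 102 and 162 CPM to 50.3, 50 and 62.9 CPM (-1.21 ± 0.17, adjusted p = 0.000275). None of the 3 overlapped between the groups. Ifih1, a sensor of viral RNA named after its values were seen, differed by -0.83 ± 0.15 (adjusted p = 0.00272). The exception was Gbp3, which rose from 13.9, 13.7 and 13 CPM to 25.3, 30 and 33.8 CPM (1.14 ± 0.17, adjusted p = 0.000561). In Thpok-RKF- cells, 16 of the 26 were lower than in WT CD4 SP and 2 higher, where 8.42% and 9.15% of all genes were. Between the mutant groups 0 members passed in edgeR, 0 in DESeq2 and 0 in limma, and 5 had an unadjusted edgeR p under 0.05. The count of 10 became 6 when the 6 compared libraries were fitted alone.

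Of 16 MHC class I and antigen-processing genes, 2 rose: H2-Q6 (2.31 ± 0.23, adjusted p = 1.55e-05) and H2-Q7 (1.00 ± 0.11, adjusted p = 2.73e-05). H2-Q6 stood at 12.7, 14.8 and 13.4 CPM against 74.5, 63.9 and 64.3 CPM. Between the mutant groups, H2-Q6 differed by 1.57 (adjusted p = 0.00364) and H2-Q7 by 0.11 (adjusted p = 0.67). These Qa region genes are near-identical copies, so reads may have been split between them. Of 14 genes of the NuRD corepressor, a histone deacetylase and remodelling complex, 2 rose (Mbd3 and Gatad2a) and 12 did not pass. Beside the counts of both lists, 4.36% of all genes tested were higher and 2.91% lower. Gatad2a stood at 185, 195 and 187 CPM against 225, 247 and 261 CPM (0.37 ± 0.09, adjusted p = 0.0183). Its call was lost without WT CD4 SP replicate 1 or 3 or Thpok-RKF+ replicate 3 (0.35, 0.34 and 0.32, adjusted p = 0.0854, 0.0811 and 0.0963). That of Mbd3 (0.34, adjusted p = 0.045) was lost without WT CD4 SP replicate 2 or 3 or Thpok-RKF+ replicate 2 or 3 (0.33, 0.26, 0.34 and 0.30, adjusted p = 0.119, 0.209, 0.0781 and 0.162).

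Of 16 mitosis genes, which mark dividing cells, 0 passed against WT CD4 SP in edgeR, DESeq2 or limma, 0 had an unadjusted edgeR p under 0.05, and the median was -0.05. Thpok-RKF- cells had 9 of the 16 above WT CD4 SP, where 9.15% of all genes were. Between the mutant groups, 2 of the 16 were lower with Thpok-RKF in edgeR, with a median of -1.11, where 0.375% of all genes were lower. DESeq2 called 10 of them and limma 6, and 12 had an unadjusted edgeR p under 0.05. In Thpok-RKF+ cells 16 of 16 were lower than in WT CD8 SP, where 6.11% of all genes were. WT CD4 SP cells also had 16 of 16 lower than WT CD8 SP, where 1704 of 16550 genes were. Of 16 DNA replication genes, 2 rose and 1 fell against WT CD4 SP, where 4.36% of all genes were higher and 2.91% lower. The licensing factor gene Cdt1 rose, from 43.1, 46.3 and 54.2 CPM to 65.1, 71.4 and 70.3 CPM (0.53 ± 0.11, adjusted p = 0.0109). It lost its call without WT CD4 SP replicate 1 (0.45, adjusted p = 0.0561). Of 15 glycolysis genes 1 passed, Pfkp, at 350, 289 and 312 CPM against 394, 463 and 430 CPM (0.44 ± 0.10, adjusted p = 0.0153). It lost its call without WT CD4 SP replicate 2 (0.37, adjusted p = 0.0681) or 3 (0.40, adjusted p = 0.0582) or Thpok-RKF+ replicate 3 (0.43, adjusted p = 0.0515). Among 12 BCL2 family genes the pro-apoptotic Bid passed (0.87 ± 0.20, adjusted p = 0.0154), and lost its call without WT CD4 SP replicate 1 or 2 or Thpok-RKF+ replicate 2 or 3 (0.81, 0.84, 0.66 and 0.80, adjusted p = 0.0726, 0.0552, 0.0617 and 0.0651). The glycolysis and BCL2 lists thus had 1 call each, a share near the 7.26% of all genes tested. Of 15 immediate early and heat-shock genes and of 12 immature thymocyte genes, 0 passed in edgeR, DESeq2 or limma, and 1 in each list had an unadjusted edgeR p under 0.05.

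**Figure D5:**
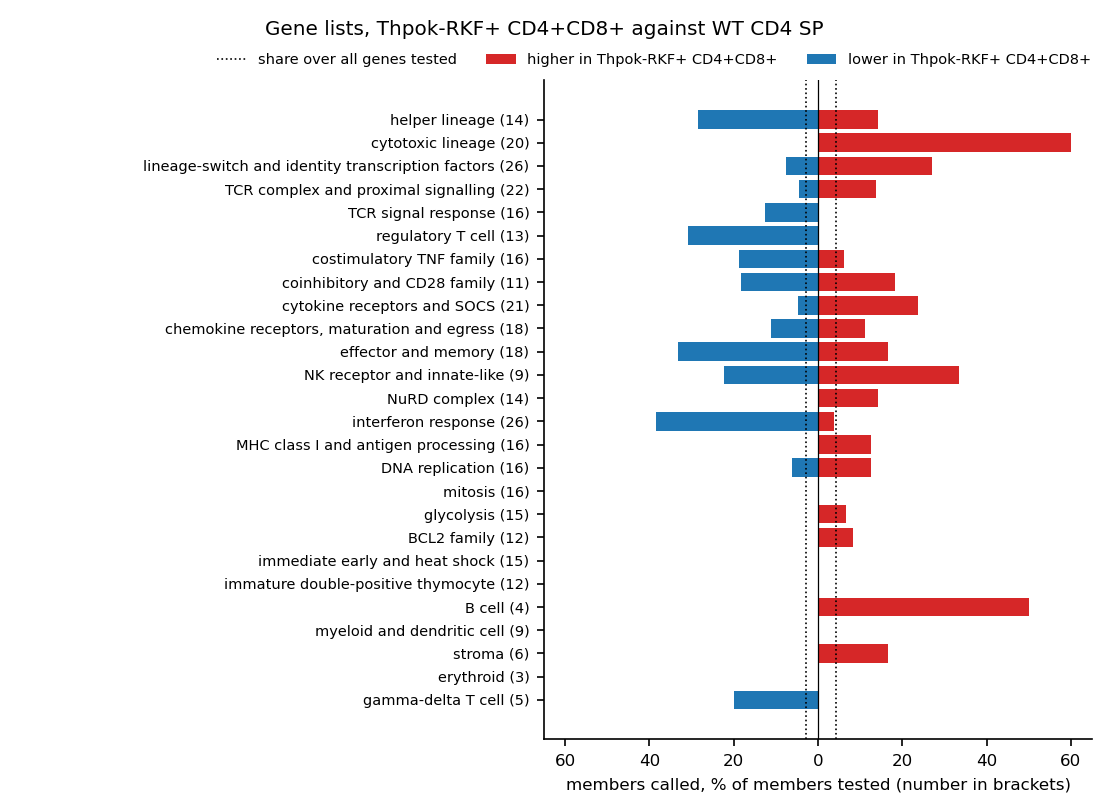
Share of each gene list's tested members (number in brackets) that were higher (red, right) or lower (blue, left) in Thpok-RKF+ CD4+CD8+ than in WT CD4 SP; dotted lines mark the shares over all genes tested, 4.36% higher and 2.91% lower. The cytotoxic list has the longest red bar and the interferon list the longest blue bar.

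Markers of other cell types that the gate could hold were examined next. Beside the counts of these lists, 4.36% of all genes tested were higher and 2.91% lower. Of 9 myeloid and dendritic genes tested, 0 passed in edgeR, 1 in DESeq2 and 1 in limma, and 1 had an unadjusted edgeR p under 0.05. Lyz2, a macrophage gene, stood at 28.3, 0.393 and 0 CPM in WT CD4 SP and at 24.5, 0.194 and 0.876 CPM in Thpok-RKF+ libraries. Replicate 1 of each group was thus the one with Lyz2. The summed level of the 14 genes on that list was 65.9 to 119 CPM and 84.3 to 132 CPM. Of 4 B cell genes tested, Cd79b (2.76 ± 0.43) and Ighd (4.47 ± 0.80) were higher in Thpok-RKF+ cells, at up to 13.2 CPM and 6.67 CPM. WT CD8 SP averaged more of both, at 41 CPM and 45.3 CPM. The defining B cell gene Ms4a1 was at 0 in every library of Thpok-RKF+ and WT CD4 SP cells. Ighd missed the threshold without the 5 libraries numbered 1 (4.07, adjusted p = 0.0502). The summed level of the 8 B cell genes was 543 to 809 CPM in WT CD4 SP and 362 to 760 CPM in Thpok-RKF+ libraries. Most of it was Ighm, the mu heavy chain gene, at 656, 536 and 803 CPM against 347, 735 and 660 CPM (-0.20, adjusted p = 0.746). Of 6 stromal genes, Col1a1 passed, with 78 counts over the Thpok-RKF+ libraries against none (at least 26-fold higher on the floor of 3 counts over the group), and Krt5 and Pdgfra were at 0 in both groups. The Col1a1 call was lost in limma (adjusted p = 0.187). The 10 listed stromal genes summed to 261 to 313 CPM in WT CD4 SP and 220 to 268 CPM in Thpok-RKF+ libraries. Of 5 gamma-delta T cell genes, Trgc2, a gamma chain constant gene, fell from 3.36, 2.71 and 4.53 CPM to 0.148, 0.194 and 0.0237 CPM (-4.81 ± 1.03, adjusted p = 0.00928), and Trdc, the delta chain constant gene, overlapped between the groups (0.02, adjusted p = 0.974). Of 3 erythroid genes, 0 passed in edgeR, DESeq2 or limma, and 1 had an unadjusted edgeR p under 0.05. The part of such cells in the results above was not tested. Without the 5 libraries numbered 1, 1009 genes differed, of which 760 were among the 1202, with 4 of 14 helper genes lower and 12 of 21 tested cytotoxic genes higher. Klrk1 was not among those 12 (6.29, adjusted p = 0.17).

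Genes that separated Thpok-RKF+ from Thpok-RKF- cells had varied positions against WT CD4 SP. The 6 largest rises with Thpok-RKF were Cpne8, Syt10, Zbtb7b, Rabl2, Cd247 and Cd4, of which Cd4 is the one not called against WT CD4 SP. The 6 largest falls were Ckb, Pcsk1, Foxp3, Myo10, Cacng4 and Slc28a2b. Pcsk1, a proprotein convertase, was at 48.6, 62.7 and 48.6 CPM in Thpok-RKF- cells and at 8.59, 10.4 and 17.7 CPM in Thpok-RKF+ cells. The Thpok-RKF+ level overlapped that of WT CD4 SP, at 4.59, 7.63 and 10.5 CPM (0.69 ± 0.39, adjusted p = 0.345). Myo10, an unconventional myosin, was lower in Thpok-RKF+ cells than in WT CD4 SP, at 7.27, 2.31 and 5.99 CPM against 20.6, 32.5 and 17.6 CPM (-2.18 ± 0.40, adjusted p = 0.00305). Slc28a2b, of a nucleoside transporter family with near-identical copies, stood at 227, 225 and 178 CPM in WT CD4 SP and at 69.2, 51.4 and 64.9 CPM in Thpok-RKF+ libraries (-1.76 ± 0.19, adjusted p = 2.63e-05). Its Thpok-RKF- level of 210, 185 and 174 CPM overlapped WT CD4 SP. Cacng4, a channel subunit, lay above WT CD4 SP in both mutant groups, at 9.94, 7.97 and 8.88 CPM with Thpok-RKF and 26.8, 33.2 and 31.2 CPM without (7.36 ± 0.50 against WT CD4 SP, or 7.96 without WT CD4 SP replicate 3).

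Genes that were lowest in WT CD4 SP relative to WT CD8 SP were raised in Thpok-RKF+ cells, most of them in part. Haao, an enzyme of tryptophan breakdown, was at 0, 0.0621 and 0.0686 CPM in WT CD4 SP, at 9.03, 9.54 and 10.4 CPM in Thpok-RKF+ libraries, and at 66.2, 60.1 and 70.4 CPM in WT CD8 SP. It lay between them, 7.68 above WT CD4 SP (adjusted p = 5.68e-08) and at -2.76 against WT CD8 SP (adjusted p = 2.35e-05). Kcnc1, a potassium channel gene, had no count in WT CD4 SP and 100 over the Thpok-RKF+ libraries, at least 33.3-fold higher on the floor of 3 counts over the group, and it differed from WT CD8 SP by -4.62 (adjusted p = 5.45e-05). Its fitted difference from WT CD4 SP of 8.07 became 7.37 without Thpok-RKF+ replicate 3. Cercam, a cell adhesion gene, was at 0.0685, 0 and 0 CPM in WT CD4 SP and at 0.634, 0.0648 and 1.02 CPM in Thpok-RKF+ libraries, so the groups overlapped, and WT CD8 SP averaged 32 CPM. It differed from WT CD4 SP by 4.52 ± 0.93 (adjusted p = 0.00736), by 7.68 without WT CD4 SP replicate 1 and by 3.82 without Thpok-RKF+ replicate 3. The Cercam call was lost in limma (adjusted p = 0.124) and without the 5 libraries numbered 1 (7.58, adjusted p = 0.0697), and the Kcnc1 call was lost in limma (adjusted p = 0.0696). Slc6a19, in contrast, did not differ from WT CD8 SP past the threshold (0.67, adjusted p = 0.174).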

How the data were processed

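Sequenced RNA came from 15 libraries of sorted thymocytes, 3 per group, grouped by population and genotype in the labels. Per the labels, RNA was taken with RNeasy Plus Micro and libraries were made with SMARTer Ultra Low Input reagent. Tools and build, per the submitters' processing notes and with no roles given, were mm39, STAR, HTSeq, Trimmomatic, DESeq2 and bcl2fastq 2.17. Neither annotation nor strand setting is stated, so overlapping and antisense genes cannot be told apart. Raw gene counts were deposited for each library and again in a table of all, identical for all 15 libraries. The authors also deposited CPM values, which gave back the deposited counts in 100% of cases (tolerance 0.01). The table held 3 columns that match no label and were not used. The 5 summary lines held 15.9% to 21% of counted reads and were left out.

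Changes were tested with edgeR 4.0.16 (R 4.3.3): TMM, filterByExpr (minimum count 10, minimum total 15), a model of group means over all 15 libraries, and the quasi-likelihood F test with Benjamini-Hochberg adjustment at 0.05. The spread is shared by all groups. Standard errors are the log2 fold change over the square root of F. CPM values use TMM-scaled library sizes. Self-tests on simulated counts were run. Exact permutation of 3 against 3 cannot go below p = 0.1, so none was used. Folds against a group at 0 use a floor of 3 counts over the group, which covers counting error only. Replicate pairs differed by more than sampling noise, with chi-square over degrees of freedom from 11.1 to 190.

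The members, the 26 gene lists (376 genes, 1 symbol not in the table) and the tests were chosen with earlier results of these data known. Named were Zbtb7b, Runx3, Cd247, Tspan9, Cd4, Cd8a, Cd8b1, Gata3 and the gate genes; up to 4 called members per list by smallest adjusted p; the 12 largest rises and 12 largest falls against WT CD4 SP, 6 of each against Thpok-RKF-, and 5 reference genes per direction between the WT groups. For the largest changes, a passed test, groups without overlap and a mean log2 CPM of 3 or more were required, and Xist, Y-linked genes, predicted models and receptor segments were skipped. Alternatives were no filter, relative log expression size factors, DESeq2 1.42.0, the compared groups alone, the replicate block, limma-trend (limma 3.58.1) on log2 of CPM plus 1, a 2-fold threshold, and leaving out libraries. Deviations of same-numbered Thpok-RKF+ and Thpok-RKF- libraries correlated at 0.32, 0.21 and 0.12 for numbers 1, 2 and 3. Those of Thpok-RKF+ replicate 2 and Thpok-RKF- replicate 3 correlated at 0.15. Those of Thpok-RKF+ replicate 3 and Thpok-RKF- replicate 2 correlated at 0.12. The data thus set number 1 apart but do not tell numbers 2 and 3 apart, and the labels do not pair these groups. The replicate block is therefore given as an alternative only. Results for some list members are not reported here.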

Additional observations from a re-analysis of the deposited data

How the results depend on the processing

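Counts of genes differing between Thpok-RKF+ CD4+CD8+ and WT CD4 SP (1202; 721 higher, 481 lower) were 1940 with DESeq2 (867 lower), 581 with the 6 compared libraries alone (360 higher, 221 lower), 696 with a 2-fold threshold (455 higher, 241 lower), 1206 with relative log expression factors, 1498 without the filter, 1468 with limma-trend, 1681 with a term for libraries numbered 1 (751 lower) and 1009 after leaving all 5 of those out. Leaving out 1 library gave 832 to 1322 genes, and 310 to 511 lower. Interferon-response genes lower numbered 6 with the compared libraries alone and 5 with the 2-fold threshold, leaving out 1 library gave 7 to 9, and they numbered 15 with a term for libraries numbered 1, 14 with the replicate block, 13 with DESeq2, 13 with limma-trend and 12 without the filter, against 10.

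Thpok-RKF+ against Thpok-RKF- (159) gave 428 without the filter, 685 with DESeq2, 52 with the compared groups alone, 287 with limma-trend, 99 with the 2-fold threshold, 350 with a term for libraries numbered 1, 1753 after leaving those out, and 50 to 1677 leaving out 1 library. With the 2-fold threshold, Thpok-RKF- against WT CD4 SP gave 1153, Thpok-RKF+ against WT CD8 SP 974 and WT CD4 SP against WT CD8 SP 1397; leaving out 1 library gave 1488 to 2626, 1092 to 2205 and 1908 to 2623.

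Deviations of same-numbered Thpok-RKF+ and WT CD4 SP libraries correlated at 0.26, -0.35 and 0.14, and not every library correlated best with its own number, so these groups share only a number. The replicate block gave 1533 genes for Thpok-RKF+ against WT CD4 SP and 240 against Thpok-RKF-; it changed no call of the direct mutant tests that are printed for single genes. Signs turned for 3 genes that were not called: Cd24a (-0.52 without the libraries numbered 1, -0.15 without WT CD4 SP replicate 1, -0.16 without Thpok-RKF+ replicate 1; leaving out 1 library gave -0.16 to 0.75), Cd69 (-0.02 without WT CD4 SP replicate 3, -0.05 without Thpok-RKF+ replicate 1; -0.05 to 0.65) and Cd44 (0.18 without Thpok-RKF+ replicate 3; -0.56 to 0.18). The cause was not tested. A fit that leaves 2 libraries in a group shares its spread with the other groups. Klrk1 and Col1a1 had 42 and 78 counts over the Thpok-RKF+ libraries and none in WT CD4 SP; the part of depth in their lost calls was not tested.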
